A study of Mus musculus with 6 samples.

Results

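The mitochondrial chromosome of the mouse encodes 37 genes, and all 37 are listed in the deposited expression table among 54532 genes. They were taken as every gene whose GENCODE M21 symbol begins with mt-, and comprise 13 mRNA genes, 2 rRNA genes and 22 tRNA genes. The RNA came from primary cardiomyocytes of newborn mice whose Rit1 locus was built so that recombination by Cre turns on expression of M90I, a variant of the RAS-related GTPase RIT1. On day 3 after isolation the cultures received an adenovirus carrying GFP alone (AdGFP, genotype labelled Rit1 +/+) or GFP with Cre (AdCre, genotype labelled Rit1 M90I/+). Each group held 3 biological replicates, numbered 1 to 3. All 6 cultures thus shared the engineered mice, the culture and an adenovirus with GFP. Per the methods of the study, cells from successive digestions of the hearts were pooled and kept on plastic before seeding, and only those that had not attached were used. No group received AdCre without the engineered locus, so the variant and the recombinase cannot be told apart.

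Each of the 13 mitochondrial mRNAs encodes a subunit of the respiratory chain or of the ATP synthase, and the rest of those subunits come from nuclear genes. Both strands of the circular chromosome are transcribed as long precursors. The tRNAs punctuate the precursor and are cut out, which frees the mRNAs and rRNAs on either side. Most mitochondrial mRNAs then receive a short poly(A) tail, which for some completes the stop codon, whereas tRNAs carry no such tail. Heart muscle is rich in mitochondria and is known for a large share of mitochondrial RNA.

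Selection on poly-T beads, random priming and counting per gene lie between these molecules and the values. The unit is FPKM (fragments for each kilobase of a gene's exons, scaled to the size of the library), which is given per length. Between genes it accounts for length alone, not for selection on the beads or for reads that match several places. Reads worked back from FPKM numbered from 25.3 M to 32.4 M per sample. Rit1 measured 7.66, 8.99 and 9.01 FPKM in AdGFP 1 to 3 and 8.90, 9.10 and 9.58 FPKM in AdCre 1 to 3 (log2 difference 0.11, or 0.030 to 0.15 with a sample or same-numbered pair left out, SE 0.12, limma adjusted p 0.840). That level adds both alleles together and does not check the genotype. Each of the 14 cardiomyocyte markers looked for was above 0 in every sample.

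A stretch of chromosome 1 holds a copy of part of the mitochondrial chromosome, and the sequences of members that lie opposite it are shown first because the levels divided along it. The copy is annotated in GRCm38 (mm10) as 7 unprocessed pseudogenes on the minus strand of chromosome 1, from 24611535 to 24616197, in the same order as the mitochondrial genes they face. The facing stretch of the mitochondrial chromosome (M) runs from 6381 to 11042, or 4662 bases. The first 90 bases of mt-Co2 (M, from 7013 to 7102, plus strand) and the bases of Gm28661 that face them (chromosome 1, from 24615476 to 24615565, minus strand) are the same, and those of mt-Nd3 (M, from 9459 to 9548, plus strand) and Gm28438 (chromosome 1, from 24613030 to 24613119, minus strand) differ at 1 base, which is in capitals.
mt-Co2: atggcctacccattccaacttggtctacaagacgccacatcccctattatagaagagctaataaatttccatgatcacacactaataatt
Gm28661: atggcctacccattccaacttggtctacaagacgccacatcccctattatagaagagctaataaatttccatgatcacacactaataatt
mt-Nd3: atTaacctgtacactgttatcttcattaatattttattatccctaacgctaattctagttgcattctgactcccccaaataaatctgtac
Gm28438: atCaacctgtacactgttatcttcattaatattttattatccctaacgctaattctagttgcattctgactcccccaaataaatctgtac

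Over the whole length of each annotated copy, 5 of the 7 mRNAs had 0 mismatches. These were mt-Co2 (681 bases compared), mt-Atp6 (678), mt-Co3 (783), mt-Nd4l (294) and mt-Nd4 (876). The comparison of mt-Nd3 covered 345 bases with 1 mismatch, and that of mt-Co1 covered 492 bases with 6. The share of all 50-base words of a gene that also occur in transcripts of other annotated genes was 100% for mt-Co2, 99.86% for mt-Co3, 99.5% for mt-Atp6, 98.8% for mt-Nd4l and 98.0% for mt-Nd3. It was 62.2% for mt-Nd4 and 51.1% for mt-Co1, which shared 28.7% with Gm29216 itself. For mt-Nd2 it was 8.19%, for mt-Nd5 7.61% and for mt-Rnr2 1.04%, and it was 0% for mt-Nd1, mt-Nd6, mt-Cytb and mt-Rnr1. For mt-Atp8 it was also 0%. Its last 43 bases, shared with mt-Atp6, face Gm10925, and the rest lies opposite a gap of 233 bases between Gm28661 and Gm10925. Sequence outside annotated transcripts was not searched.

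The 4 tRNA genes printed next were chosen as the highest 2 by level (mt-Tp and mt-Tc), the one tRNA called in any fit as deposited (mt-Tn), and one that is listed at 0 within the facing stretch (mt-Td). Capitals mark the anticodon, found as the middle of a 7-base loop closed by 5 paired bases. All letters are those of the GENCODE M21 transcripts on GRCm38.
mt-Tp: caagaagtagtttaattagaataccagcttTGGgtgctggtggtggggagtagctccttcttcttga
mt-Tc: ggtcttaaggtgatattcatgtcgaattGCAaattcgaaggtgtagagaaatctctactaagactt
mt-Tn: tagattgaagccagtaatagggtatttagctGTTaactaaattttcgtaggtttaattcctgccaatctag
mt-Td: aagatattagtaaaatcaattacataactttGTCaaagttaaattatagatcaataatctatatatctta
They carry proline (M, from 15356 to 15422, minus strand), cysteine (from 5192 to 5257, minus strand), asparagine (from 5089 to 5159, minus strand) and aspartate (from 6942 to 7011, plus strand).

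Levels along the chromosome fell into 3 sections. The first section, upstream of the facing stretch, and the third, downstream of it, held 5 mRNAs between 1336 and 4021 FPKM in any sample. The 2 mRNAs that straddle its ends, mt-Co1 and mt-Nd4, lay between 997 and 8962 FPKM. The 6 mRNAs that lie wholly inside it (mt-Co2, mt-Atp8, mt-Atp6, mt-Co3, mt-Nd3 and mt-Nd4l) lay between 2.32 and 63.0 FPKM. The lowest mean over the 6 samples of any mRNA not wholly inside was 25.4 times the highest mean of any mRNA inside. This is a description of both annotation and level, with no test. How reads that match both places were counted is not given in the sources used here, and the part of the copy in these levels was not tested.

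**Figure D1:**
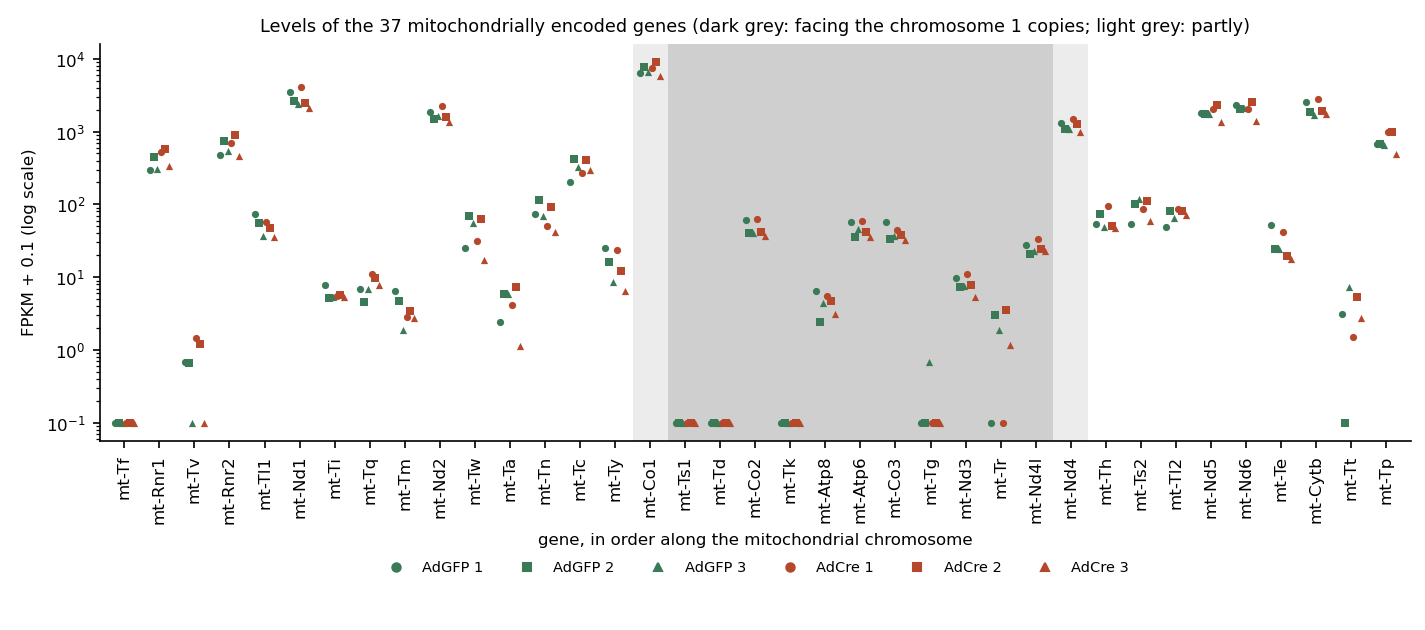
FPKM of the 37 mitochondrially encoded genes in the order in which they lie on the chromosome (log axis, with 0.1 FPKM added so that 0 can be drawn), 1 point for each sample. The 6 mRNAs on the dark grey field, which faces the chromosome 1 copies, lie between 2.32 and 63.0 FPKM, and the 7 others at 997 FPKM or more.

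The catalytic core of cytochrome c oxidase (complex IV) is encoded by mt-Co1 (ENSMUSG00000064351, M, from 5328 to 6872), the highest of the 37. Its level was 6323, 7662 and 6610 FPKM in AdGFP 1 to 3 and 7350, 8962 and 5697 FPKM in AdCre 1 to 3. It ranked 2 among all genes listed in every sample. The partners of mt-Co1 in the same enzyme were far lower. The copper-binding subunit mt-Co2 (ENSMUSG00000064354, M, from 7013 to 7696) was at 61.8, 40.3 and 39.9 FPKM in AdGFP and 63.0, 42.1 and 37.0 FPKM in AdCre. The remaining core subunit, mt-Co3 (M, from 8607 to 9390), was at 56.4, 33.3 and 37.0 FPKM in AdGFP and 44.1, 37.6 and 31.9 FPKM in AdCre. Both lie wholly inside the facing stretch.

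Complex I, the NADH dehydrogenase, takes 7 subunits from the mitochondrial chromosome. The membrane subunit mt-Nd1 (ENSMUSG00000064341, M, from 2751 to 3707) had 3523, 2663 and 2389 FPKM in AdGFP and 4021, 2430 and 2136 FPKM in AdCre. Of the proton-pumping subunits, mt-Nd2 ranged over 1351 to 2219 FPKM, mt-Nd5 over 1336 to 2299 FPKM and mt-Nd4 over 997 to 1478 FPKM. The light-strand gene mt-Nd6 (M, from 13552 to 14070, minus strand), which overlaps mt-Nd5 by 14 bases, ranged over 1393 to 2575 FPKM. Neighbours in this order overlapped in their ranges. The remaining 2 subunits are in the facing stretch, where mt-Nd4l measured 20.6 to 33.6 FPKM and mt-Nd3 5.29 to 11.1 FPKM.

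The one mitochondrial subunit of complex III, cytochrome b, is encoded by mt-Cytb (ENSMUSG00000064370, M, from 14145 to 15288), at 2506, 1875 and 1689 FPKM in AdGFP and 2830, 1894 and 1747 FPKM in AdCre. The ATP synthase (complex V) has mt-Atp6, which forms its proton channel, and the small mt-Atp8. Both lie inside the facing stretch and overlap by 43 bases. The level of mt-Atp6 was 57.8, 35.4 and 45.8 FPKM in AdGFP and 58.1, 42.2 and 35.7 FPKM in AdCre. With 12 to 35 reads a sample, mt-Atp8 was the lowest mRNA, at 2.32 to 6.35 FPKM. In the stretch below, which begins 12 bases before the overlap (M, from 7915 to 7969), capitals mark the start codon of mt-Atp6 and the stop codon of mt-Atp8.
mt-Atp8 end: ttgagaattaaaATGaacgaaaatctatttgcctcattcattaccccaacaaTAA

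Of the 13 annotated mRNAs, 3 end 1 base past the last whole codon, on a T. These are mt-Co3, mt-Nd4 and mt-Cytb, and a poly(A) tail is known to complete such a stop codon to TAA. The last 30 bases of mt-Co3 (M, from 9361 to 9390), mt-Nd4 (from 11515 to 11544) and mt-Cytb (from 15259 to 15288) are shown with that base in capitals, beside those of mt-Co1 (from 6843 to 6872), which encodes its whole stop codon.
mt-Co3 end: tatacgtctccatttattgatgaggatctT
mt-Nd4 end: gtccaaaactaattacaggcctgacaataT
mt-Cytb end: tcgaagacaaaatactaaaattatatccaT
mt-Co1 end: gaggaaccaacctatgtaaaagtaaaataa
Levels did not divide by this feature, since mt-Co3 was among the low mRNAs while mt-Nd4 and mt-Cytb were among the high ones.

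The copies themselves carried values. For mt-Co2, the level of the mitochondrial gene divided by that of Gm28661 was 0.822, 0.872 and 0.869 in AdGFP 1 to 3 and 0.946, 0.867 and 0.968 in AdCre 1 to 3. The mitochondrial value was the lower in every sample. The same ratio ran from 0.693 to 0.827 for mt-Atp6 over Gm10925, from 0.712 to 0.813 for mt-Co3 over Gm28437 and from 0.513 to 0.741 for mt-Nd4l over Gm10222. Here too the mitochondrial gene had the lower value in every sample. For mt-Nd3 over Gm28438 it was 0.0942 to 0.134, and for the mRNAs with sequence beyond the copy it was 40.8 to 50.2 (mt-Nd4 over Gm28439) and 41.0 to 103 (mt-Co1 over Gm29216). The smallest mt-Co1 ratio was that of AdGFP 3, where Gm29216 was at 161 FPKM against 60.5 to 92.2 FPKM in the other samples.

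**Figure D2:**
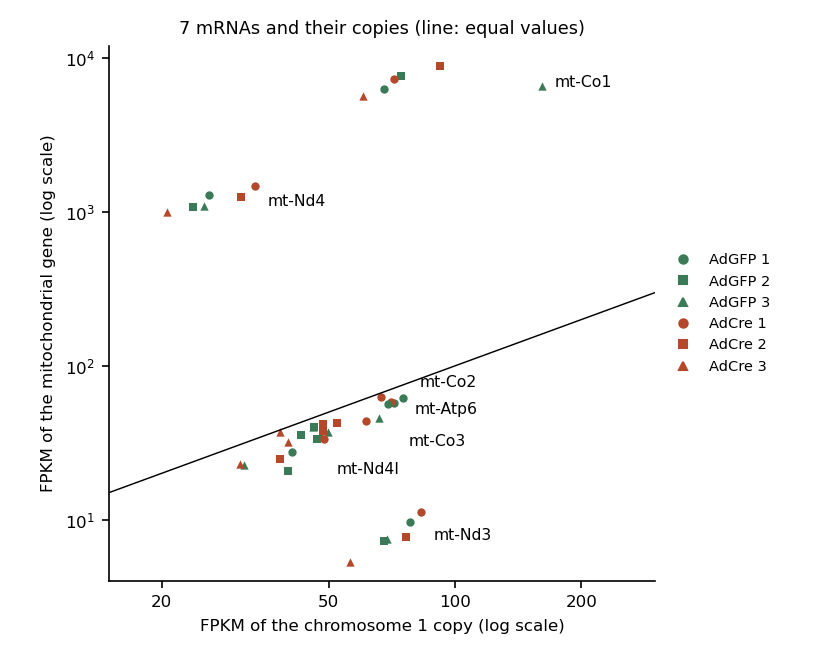
FPKM of 7 mitochondrial mRNAs against FPKM of the pseudogene on chromosome 1 that each faces (both axes log), 1 point for each sample, with the line of equal values. The copies lie between 20.6 and 161 FPKM, mt-Co1 and mt-Nd4 lie at 40.8 times their copies or more, and the other 5 lie below the line.

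The rRNAs of the mitochondrial ribosome were lower per length in every sample than each mRNA that does not lie wholly inside the facing stretch. The small-subunit rRNA mt-Rnr1 (ENSMUSG00000064337, M, from 70 to 1024) was at 297, 451 and 309 FPKM in AdGFP and 521, 581 and 331 FPKM in AdCre. The large-subunit rRNA mt-Rnr2 (M, from 1094 to 2675) was at 476, 734 and 539 FPKM in AdGFP and 692, 902 and 465 FPKM in AdCre. Replicate 2 was the highest of its group for both genes in both groups. Summed rRNA over summed mRNA FPKM was 0.0388 to 0.0632 in AdGFP and 0.0538 to 0.0701 in AdCre. The libraries were made from poly(A) RNA, so this ratio is no measure of rRNA content.

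Among the tRNA genes, mt-Tp at the end of the annotated order had 672, 674 and 650 FPKM in AdGFP and 984, 978 and 484 FPKM in AdCre (899 to 2112 reads). Next came mt-Tc at 200 to 424 FPKM, mt-Ts2 (serine) at 53.5 to 119 FPKM, mt-Tn at 41.2 to 115 FPKM and mt-Tl2 (leucine) at 49.0 to 87.1 FPKM. Mature tRNA, precursor and antisense RNA cannot be told apart in these values. The 17 tRNA genes outside the facing stretch had a median level of 29.8 FPKM. Of these, 1 (mt-Tf, phenylalanine, the first gene of the order) was listed at 0 in every sample. The 5 inside it (mt-Ts1, mt-Td, mt-Tk, mt-Tg and mt-Tr) had at most 6 reads in any sample. Among them mt-Ts1, mt-Td and mt-Tk were at 0 reads in all 6 samples, where a count of 0 allows a level of up to 1.87 FPKM (3 reads, counting error only).

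The genes mt-Nd6, mt-Tq, mt-Ta, mt-Tn, mt-Tc, mt-Ty, mt-Ts1, mt-Te and mt-Tp lie on the minus strand, and the plus-strand precursor runs opposite each of them. The sources used here do not say if counting took account of strand, so RNA of either strand cannot be told apart at these genes. The ratio of mt-Nd6 to its overlapping neighbour mt-Nd5 was 1.28, 1.18 and 1.20 in AdGFP and 1.02, 1.12 and 1.04 in AdCre. The groups did not overlap (exact permutation p = 0.1, and 0.3 adjusted over the ratios added after the data were seen). This ratio was singled out after its values were seen, so its p-value is no support. The other ratios added then, those of mt-Co1, mt-Rnr1 and mt-Cytb to mt-Nd1 and of mt-Nd4 to mt-Nd5, overlapped between the groups. Of all genes tested, 15.4% had groups that did not overlap.

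The comparison of AdCre with AdGFP was designed around expression of RIT1 M90I, and here includes any effect of Cre itself. Of the 37 genes, 32 had a mean of at least 0.5 FPKM and were tested, and 0 of the 32 were called between the groups (limma on log2(FPKM + 0.1), adjusted p under 0.05). The share called among all 13794 genes tested was 0.00725%, so 0 calls among 32 is no result about these genes. At an unadjusted p under 0.05 there was 1 member, mt-Tq, beside 1402 of the 13794 genes. In every one of the 13 mRNAs the samples of the groups overlapped. They did not overlap for 1 member, again mt-Tq, against 15.4% of all genes tested.

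Log2 differences of the 13 mRNAs ran from -0.15 (mt-Nd6) to 0.18 (mt-Nd4l, 0.014 to 0.30 when a sample or pair was left out), with a median of 0.02 beside -0.0022 for all genes tested. As deposited, 7 were positive and 6 negative. After rescaling to TPM (every sample scaled to an equal sum), 11 were positive and 2 negative with a median of 0.11, and the median of all genes moved to 0.09. Without AdCre replicate 3 the median of the 13 was 0.20, and without AdCre replicate 1 it was -0.19. The widest 95% confidence interval of the 13 was that of mt-Atp8, with the fewest reads (-0.84 to 0.95), and the narrowest that of mt-Nd4l (-0.26 to 0.62). With the replicate number as a block, described further on, intervals were narrower, at -0.63 to 0.75 for mt-Atp8 and -0.19 to 0.18 for mt-Co2, and each of the 13 still held 0. For mt-Co1 the difference was 0.08 (SE 0.30, interval -0.64 to 0.79, adjusted p 0.973), and for mt-Cytb it was 0.08 (SE 0.28, interval -0.58 to 0.74, adjusted p 0.968). For mt-Nd1 it was -0.03, with an interval from -0.79 to 0.72.

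**Figure D3:**
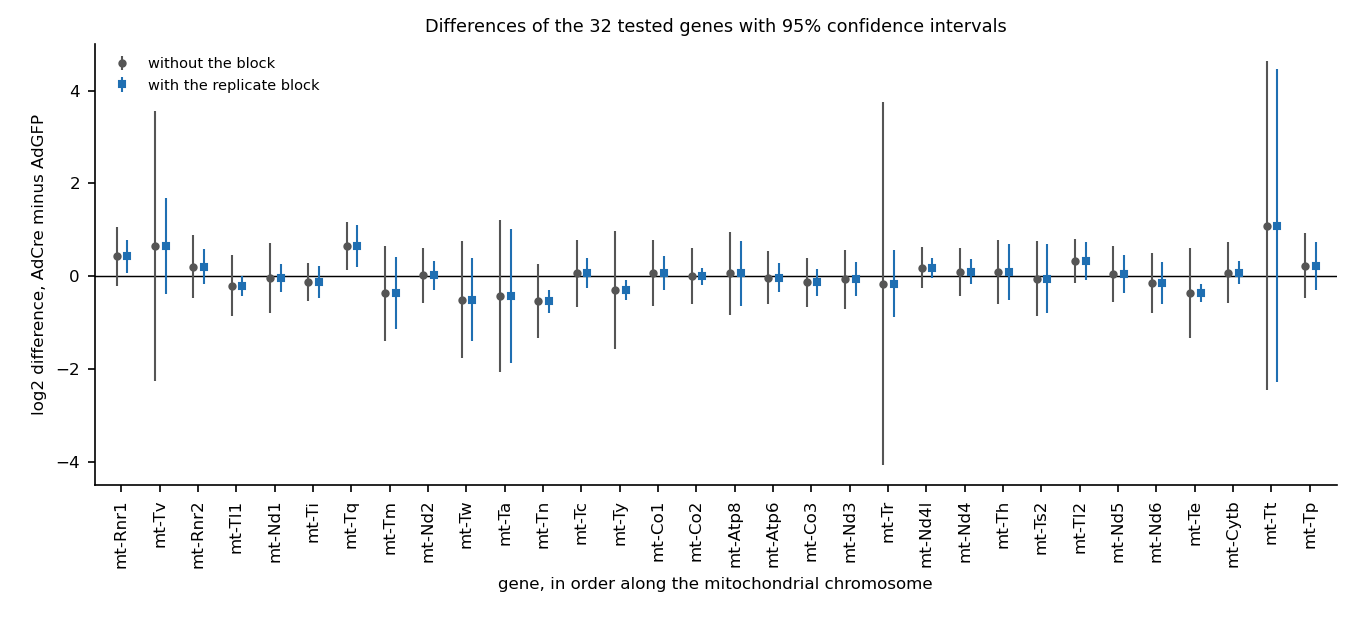
Log2 difference (AdCre minus AdGFP, on log2(FPKM + 0.1)) of the 32 tested genes in chromosome order, with 95% confidence intervals from the fit without the replicate number (grey) and with it as a block (blue). Without the block the mRNA differences lie between -0.15 and 0.18, and the widest intervals belong to tRNA genes with few reads such as mt-Tt and mt-Tr.

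Both rRNAs had positive differences, neither of them called. It was 0.43 for mt-Rnr1 (SE 0.27, interval -0.22 to 1.07, adjusted p 0.676, and 0.23 to 0.67 when a sample or pair was left out) and 0.21 for mt-Rnr2 (SE 0.29, interval -0.48 to 0.89, adjusted p 0.886). The difference of mt-Rnr1 was positive within each same-numbered pair, at 0.81, 0.36 and 0.10. With the replicate number as a block its adjusted p was 0.145. It was called only when the block was applied to reads worked back from the FPKM (limma voom, adjusted p 0.0295), a fit in which 1706 genes were called in all. The ratio of mt-Rnr2 to mt-Rnr1 was 1.61, 1.63 and 1.74 in AdGFP and 1.33, 1.55 and 1.40 in AdCre, without overlap of the groups. It too was singled out after its values were seen, beside the overlapping ratios named above (exact permutation p = 0.1, and 0.3 adjusted).

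Among the tRNA genes the difference with the smallest unadjusted p was that of mt-Tq, the glutamine tRNA, at 6.84, 4.44 and 6.86 FPKM in AdGFP and 10.99, 9.82 and 7.63 FPKM in AdCre. Every AdCre value lay above every AdGFP value. The log2 difference was 0.65 (interval 0.13 to 1.17, adjusted p 0.385, and 0.1001 with the block). It rested on 8 to 25 reads a sample, and its gene overlaps mt-Ti by 3 bases on the other strand.

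Same-numbered samples resembled each other, and with the replicate number as a block 1 of the 32 members was called. This was mt-Tn, at 73.5, 115 and 69.1 FPKM in AdGFP and 50.1, 92.7 and 41.2 FPKM in AdCre (81 to 207 reads). The groups overlapped, but the AdCre sample was the lower of each pair, by log2 differences of -0.55, -0.31 and -0.75. The mean difference was -0.54 (interval -0.78 to -0.29 with the block, adjusted p 0.0426, and 0.666 without it). With the block 6.15% of all genes tested were called, 3.51% as lower and 2.64% as higher in AdCre, so 1 of 32 is not above that background. The call of mt-Tn was lost with the block after rescaling to TPM (adjusted p 0.0637), after rescaling on the FPKM of the other genes (0.0734), with voom (0.176) and without any 1 of the 3 pairs (0.0633 to 0.155). The difference in these fits lay between -0.65 and -0.43, and without the block it lay between -0.88 (without AdCre replicate 2) and -0.29 (without AdCre replicate 3) when 1 sample was left out. The next smallest adjusted p with the block was that of the glutamate tRNA mt-Te (difference -0.36, adjusted p 0.0533).

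Of the 17 tested tRNA genes, 4 were lower in AdCre within each of the 3 pairs. Besides mt-Tn these were mt-Te, which ranged from 17.8 to 51.6 FPKM over all samples, mt-Ty (tyrosine) and mt-Tl1 (leucine). All but mt-Tl1 lie on the minus strand, but so do mt-Tq, mt-Tp, mt-Tc and mt-Ta, which were not lower in every pair. In contrast, mt-Tq and mt-Tl2 were higher in each pair, as were mt-Nd4l and mt-Cytb among the mRNAs, by no more than 0.28 for mt-Nd4l and 0.18 for mt-Cytb. None of these was called apart from mt-Tn, and they were picked out by their pair differences, so they are given as a description. The ranges of the groups overlapped for all of them but mt-Tq. How many of all genes tested were lower, or higher, in every pair was not counted. In pair 3 alone 13 of the 17 tRNA genes were lower in AdCre, beside 6853 of all 13794 genes tested.

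The spread within the groups was shared by replicate number. Replicate 1 was the highest of its group for 12 of the 13 mRNAs in AdGFP, for 10 of the 13 in AdCre and for 10 in both groups. The exception in both groups was mt-Co1, the highest in replicate 2. In pair 1 the AdCre sample was the higher for 10 mRNAs, in pair 2 for 12 and in pair 3 for 2. Over all genes tested the AdCre sample was the higher for 50.5%, 47.7% and 50.2%. So the mRNAs went in different directions within the pairs, with median differences of 0.18, 0.22 and -0.22.

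**Figure D4:**
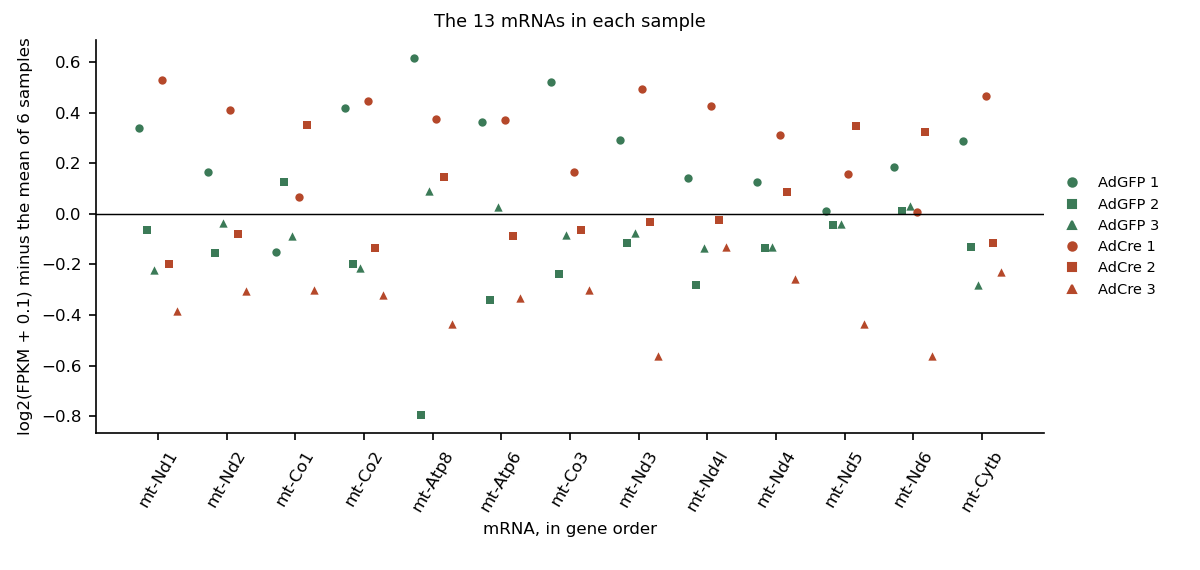
Level of each of the 13 mRNAs in each sample as log2(FPKM + 0.1) minus the mean over the 6 samples, in gene order. Replicate 1 of both groups lies at the top for 10 of the 13 mRNAs, and AdCre 3 lies below AdGFP 3 for 11.

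The share of total FPKM held by all 37 genes was 6.47%, 7.21% and 7.09% in AdGFP and 8.22%, 8.64% and 6.18% in AdCre. AdCre 1 and 2 were the highest of all samples and AdCre 3 the lowest. The mean was 6.92 ± 0.397% in AdGFP and 7.68 ± 1.32% in AdCre (SD, n = 3 each), a difference of 0.757 percentage points (two-sided exact permutation p = 0.4, where 0.1 is the smallest that 3 samples against 3 can give). Within pairs it was 1.75, 1.43 and -0.914 points. Without AdCre replicate 3 the difference was 1.51 points and without AdCre replicate 2 it was 0.277, so a single library moved it in either direction.

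Most of that share was mRNA, at 5.86% to 6.27% in AdGFP and 5.48% to 7.45% in AdCre. The rRNAs took 0.227% to 0.396% and 0.295% to 0.522%, and the tRNAs 0.384% to 0.552% and 0.405% to 0.668%, in the same order of groups. As a share of the reads worked back, all 37 genes took 2.27% to 2.499% in AdGFP and 2.05% to 2.93% in AdCre, since FPKM gives short genes more weight than reads do. The smallest exact permutation p of these shares was 0.4. All shares count the genes inside the facing stretch at their listed values.

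Within the 13 mRNAs, mt-Co1 held the largest part of the summed FPKM, at 31.8%, 40.9% and 37.9% in AdGFP and 33.1%, 42.4% and 38.5% in AdCre. It was lowest in replicate 1 and highest in replicate 2 of each group. The part of mt-Nd1 was highest in replicate 1 of each group, with 17.7%, 14.2% and 13.7% in AdGFP and 18.1%, 11.5% and 14.4% in AdCre. The smallest exact permutation p among the parts of the 13 mRNAs was 0.4, and 1 after adjustment over the 13. The 6 mRNAs inside the facing stretch each held 0.311% or less in every sample.

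Nuclear genes supply the partners of these subunits, and their summed FPKM gives a ratio for each complex. For complex III, the mitochondrial sum divided by the nuclear sum gave 1.83, 1.66 and 2.06 in AdGFP and 2.48, 2.04 and 2.31 in AdCre, the AdCre sample being the higher in all 3 pairs. Its log2 difference was 0.30 (exact permutation p = 0.2, and 0.48 adjusted over the 6 ratios of this family). Complex IV had 1.93, 2.63 and 2.98 in AdGFP and 2.65, 3.69 and 2.91 in AdCre (difference 0.30, exact p = 0.4), and complex I had 4.63, 4.75 and 6.12 in AdGFP and 6.03, 6.31 and 5.21 in AdCre (difference 0.19, exact p = 0.3). In both, pair 3 ran against the other pairs. Leaving out 1 sample moved the difference of complex IV to between 0.12 (without AdGFP replicate 1) and 0.44 (without AdGFP replicate 3), and that of complex I to between 0.11 and 0.31 (the same samples). The ratio of complex V was 0.0152 to 0.0254 over all samples, both of its mitochondrial mRNAs being in the facing stretch. In complex IV mt-Co2 (37.0 to 63.0 FPKM) and mt-Co3 (31.9 to 56.4 FPKM) lie there too. The mitochondrial sum of complex IV was thus nearly all mt-Co1 (5697 to 8962 FPKM).

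**Figure D5:**
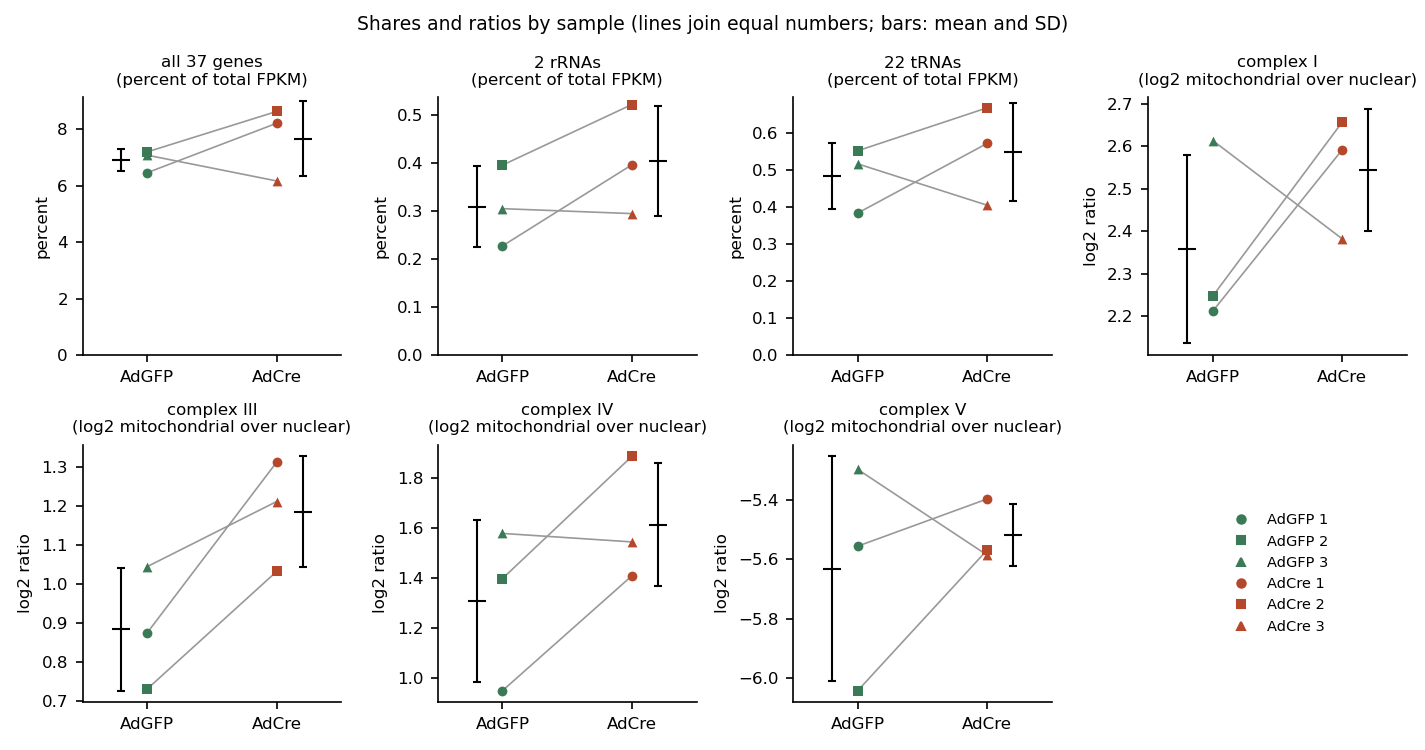
Share of total FPKM (percent, first 3 panels) and log2 ratio of summed mitochondrial to summed nuclear subunit FPKM (last 4 panels) for each sample, with lines joining equal replicate numbers and bars giving mean and SD. Pair 3 slopes down in every panel but that of complex III, where all 3 lines slope up.

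All 17 nuclear subunits of complex IV, 9 of 9 of complex III, 18 of 18 of complex V and 34 of 36 of complex I had negative log2 differences. So had 6952 of all 13794 genes tested. In the same order the medians of the complexes were -0.23, -0.16, -0.14 and -0.19. Leaving out 1 sample moved these medians to between -0.45 and -0.096 for complex IV, -0.40 and 0.0027 for complex III, -0.32 and 0.016 for complex V and -0.33 and -0.054 for complex I. All 4 were lowest without AdGFP replicate 3, and highest without AdGFP replicate 1 or, for complex III, AdCre replicate 3. After rescaling to TPM the counts of the complexes were 16 of 17, 7 of 9, 14 of 18 and 26 of 36. The medians were then -0.14, -0.07, -0.05 and -0.10, beside 0.09 for all genes tested. Without the block none of the subunits was called (1 gene of complex IV, 1 of III and 3 of I at an unadjusted p under 0.05, beside 1402 of all 13794 genes). With it 4 of the 17 for complex IV were called as lower, beside 3.51% of all genes: Cox7a1 (-0.67), Cox6a2 (-0.48), Cox8b (-0.53), which are forms used in muscle, and Cox7c (-0.48). Their limma adjusted p-values were 0.0158 to 0.0293. In complex I, Ndufb3 (-0.61), Ndufv3 (-0.49) and Ndufa6 (-0.36) were called with the block, and in complex III Uqcrb (-0.51, adjusted p 0.0268). Without pair 2 or without pair 3 no gene of these 3 complexes was called with the block, and after rescaling to TPM 1 of complex I was. The 4 nuclear subunits of complex II, which has no mitochondrially encoded one, had a median of -0.18 with 0 called. That median was -0.09 after rescaling to TPM, and -0.26 to -0.045 when a sample or pair was left out. The smallest p-values of complex II were those of Sdhc, Sdha and Sdhd.

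Markers of cell types that the culture could hold were read beside these ratios. Without the block none of the markers of 6 lists was called, and with it 2.64% of all genes were called as higher and 3.51% as lower. The summed FPKM of the 14 cardiomyocyte markers was 4752 to 7934 in AdGFP and 2903 to 5226 in AdCre, being highest in replicate 1 and lowest in replicate 3 of both groups. All 14 had negative differences under each scaling (median -0.75), and 8 were called as lower with the block, those with the smallest p being Myl2, Pln, Tnni3, Tnnt2 and Mybpc3. The 13 endothelial markers summed to 105 to 160 FPKM in AdGFP and 150 to 221 in AdCre (4 called as higher with the block, Eng, Flt1, Cdh5 and Egfl7), and the 11 macrophage markers tested had a median of 0.50 (sums of 53.1 to 290 and 93.1 to 362 FPKM, 2 called as higher, C1qb and Lyz2). That median was -0.30 without AdGFP replicate 1, which had the lowest sum, and 1.03 without AdCre replicate 1. The 12 fibroblast markers summed to 3553 to 5345 and 3075 to 4078 FPKM (3 called as lower, Dcn, Lum and Col3a1, and Thy1 as higher). Smooth muscle and pericyte markers summed to 967 to 1466 and 1148 to 1379 FPKM (Mcam called as higher, Myocd as lower), and mesothelial markers to 246 to 414 and 372 to 491 FPKM. Krt8 and Krt18 of this last list were called as higher and Lrrn4 as lower, but 5 of its 8 tested genes had negative differences, with a median of -0.26 (0.13 without AdGFP replicate 3, -0.83 without AdGFP replicate 1). Calls with the block depended on pair 3, without which no marker of these 6 lists was called, and without pair 2 calls were made among cardiomyocyte markers alone (5). Every marker of the 6 lists was above 0 in every sample. In bulk RNA fewer cells of a type and less RNA per cell cannot be told apart, and the part of these cell types in the mitochondrial values was not tested.

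The nuclear machinery that copies, cuts and translates mitochondrial RNA was compared in 5 lists, which held 23 genes of mtDNA maintenance and transcription, 38 of RNA processing and stability, 15 translation factors, 22 aminoacyl-tRNA synthetases and 77 mitochondrial ribosomal proteins that were tested. No gene of these lists was called without the block, where 0.00725% of all genes were. At an unadjusted p under 0.05 there were 0, 2, 0, 0 and 2, beside 1402 of all 13794 genes. Their medians were -0.10, -0.00058, -0.04, 0.02 and -0.0065. Those of RNA processing, translation factors and ribosomal proteins were positive after rescaling to TPM. Leaving out 1 sample turned the sign of the last 4 medians. With the block 1 gene was called, beside 6.15% of all genes. It was Mrps6 of the small ribosomal subunit, at 4.54, 5.58 and 6.72 FPKM in AdGFP and 12.1, 7.93 and 11.1 FPKM in AdCre (log2 difference 0.87, limma adjusted p 0.0497 with the block and 0.281 without).

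The members named next had the smallest p-values in lists with no call, and were not called in either fit. In transcription and maintenance they were Mterf3 (-0.23), Mterf1a (-0.62) and the thymidine kinase Tk2 (-0.26). In RNA processing they were Pnpt1, the polynucleotide phosphorylase, at 7.53, 7.17 and 8.45 FPKM in AdGFP and 9.37, 8.82 and 11.9 FPKM in AdCre (0.37, limma adjusted p 0.0695 with the block), together with Fastkd1 (-0.42) and 1110008L16Rik (-0.35). Among translation factors they were Guf1 (-0.35), Mtfmt (0.27) and Gfm2 (-0.29). Among synthetases they included Ears2 (-0.67) and Lars2 (-0.33). The nuclear subunits of complex V with the smallest p-values were Atp5j (-0.26), Atp5c1 (-0.20) and Atp5mpl (-0.23).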

How the data were processed

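Per the labels, mRNA was selected with poly-T beads and primed at random. The submitters' processing notes name fastp, STAR 2.5, HTSeq 0.6.1 and mm10, while parameters, use of strand and treatment of reads with several matches are not given in the sources used here. The authors deposited FPKM, 1 column for each of 6 samples. Of 54532 gene IDs, 54495 are in GENCODE M21 (GRCm38), which supplied symbols, lengths, coordinates and sequences, and 37 are not. FPKM times length gave whole reads within 0.01 for all 31 to 32 member values above 0 in each sample, and within 0.02 for 96.3% to 96.4% of all values, so that depth could be worked back.

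Groups follow the labels. The 13794 genes averaging 0.5 FPKM or more were fitted as log2(FPKM + 0.1) with limma 3.58.1 under R 4.3.3 (lmFit, then eBayes with a mean trend), with Benjamini-Hochberg adjustment over all of them. On this scale a log2 difference understates the change of a low gene. Shares and ratios were compared by a two-sided exact permutation test, with ratios added after seeing the data adjusted as a family of their own. The limma fit without the block was checked on simulated data that held no pairing by replicate number. The labels do not say what a replicate number marks. Deviations from the group means correlated between same-numbered samples (0.568, 0.268 and 0.506 over all genes tested, and 0.701, 0.284 and 0.515 over the 32 members), so pairing by number rests on these correlations, and results of the fit with the number as a block stand beside those calls that it alters. Nothing says that replicates came from separate litters, so p-values may measure technical spread. Python 3.11.15 with pandas 2.3.3 and numpy 2.4.6 was used.

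The members and gene lists were chosen with earlier results of these data known. Named were all mRNAs and rRNAs, the 5 tRNA genes with the highest level times length, any tRNA called, Rit1, and from each list the called members (at most 5, with the block if none without) or otherwise the 3 with the smallest p. A gene that this rule names is not reported here. The tRNA genes mt-Tq and mt-Te, the tRNA genes with few reads and the copies on chromosome 1 were named after their values were seen. Alternatives were pseudocounts of 1 and 0.01 FPKM, other filters, rescaling to TPM or on non-mitochondrial FPKM, centring on the median, quantiles made equal, eBayes with no trend, voom on the reads worked back, the block, and leaving out each sample. Those of the blocked fit were added after the data were seen.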

Additional observations from a re-analysis of the deposited data

How the results depend on the processing

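None of the 32 members was called in any fit without the replicate block (limma, adjusted p under 0.05), and none of the 4 shares of total FPKM or 6 fixed ratios passed its exact permutation test, which could not reach 0.05. With the replicate block 1 member was called (mt-Tn), and 1 with block and voom (mt-Rnr1). Genes called among all tested numbered 1 as reported, 3 with a pseudocount of 1, 0 without a filter, 4 without a trend, 0 with voom, 848 with the block, and 875, 844 and 1706 with the block and TPM, non-mitochondrial scaling and voom. They numbered 0 to 2 without the block when 1 sample was left out, and 772, 149 and 1 with the block without pair 1, 2 and 3. With the block, and then with it and TPM, non-mitochondrial scaling and voom, calls numbered 3, 1, 1 and 3 for complex I, 1 in each for complex III, 4, 3, 2 and 4 for complex IV, 8, 7, 7 and 11 for cardiomyocyte, 4, 4, 2 and 5 for fibroblast, 4, 4, 4 and 7 for endothelial, 2, 4, 4 and 6 for macrophage, 2, 1, 1 and 2 for smooth muscle and 3, 2, 3 and 4 for mesothelial lists, 1 in each for ribosomal proteins, 0, 1, 1 and 1 for RNA processing, and 1 for synthetases with voom. Leaving out 1 sample without the block gave 0 calls in every list. Leaving out 1 pair with the block gave 0 to 1 calls for complexes I and III, fibroblasts and ribosomal proteins, 0 to 4 for complex IV, 0 to 8 for cardiomyocytes, 0 to 3 for endothelium, 0 to 2 for macrophages and smooth muscle and 0 to 7 for mesothelium. The median of mtDNA maintenance was -0.016 with TPM and -0.0047 with non-mitochondrial scaling, and that of RNA processing 0.099 with the latter, with or without the block.

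Signs turned for small differences, none of them called. Under TPM and non-mitochondrial scaling, with or without the block, they were 0.055 and 0.067 for mt-Nd1, 0.083 and 0.095 for mt-Co2, 0.057 and 0.069 for mt-Atp6, 0.020 and 0.032 for mt-Nd3, and 0.039 and 0.050 for mt-Ts2. With quantiles made equal they were 0.29 for mt-Nd1, 0.032 for mt-Co2, 0.011 for mt-Atp6 and 0.17 for mt-Nd6, and with centring 0.00651 for mt-Co2. With voom they were 0.024 for mt-Nd1 (0.028 with the block), 0.066 for mt-Co2 (0.062), 0.040 for mt-Atp6 (0.033), 0.00985 for mt-Nd3 (0.041) and 0.016 for mt-Ts2. Leaving out a sample or pair gave log2 differences of -0.31 to 0.15 for mt-Nd1, -0.19 to 0.17 for mt-Nd2, -0.080 to 0.25 for mt-Co1, -0.23 to 0.20 for mt-Co2, -0.38 to 0.38 for mt-Atp8, -0.23 to 0.14 for mt-Atp6, -0.29 to 0.094 for mt-Co3, -0.33 to 0.20 for mt-Nd3, -0.039 to 0.24 for mt-Nd4, -0.13 to 0.28 for mt-Nd5, -0.38 to 0.091 for mt-Nd6, -0.13 to 0.24 for mt-Cytb, -0.015 to 0.46 for mt-Rnr2, -0.24 to 0.30 for mt-Tc and -0.42 to 0.42 for mt-Ts2. It gave medians of -0.11 to -0.021 for mtDNA maintenance, -0.088 to 0.14 for RNA processing, -0.12 to 0.077 for synthetases, -0.15 to 0.039 for translation factors, -0.12 to 0.12 for ribosomal proteins, -0.30 to 1.03 for macrophages, -0.065 to 0.14 for smooth muscle and -0.83 to 0.13 for mesothelium, and -0.091 to 0.28 for the log2 ratio of complex V. Shares of the 13 mRNAs then differed by -2.25 to 1.07 percentage points for mt-Nd1, -0.626 to 0.638 for mt-Nd2, -1.42 to 3.57 for mt-Co1, -0.0270 to 0.0223 for mt-Co2, -0.0065 to 0.00326 for mt-Atp8, -0.0422 to 0.00841 for mt-Atp6, -0.0508 to 0.00193 for mt-Co3, -0.471 to 0.445 for mt-Nd5 and -0.381 to 1.52 for mt-Cytb. The cause of these shifts was not tested. Reads were few for mt-Atp8 (12 to 35 a sample) and mt-Tq (8 to 25), and each group held 3 samples.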
